A study of Mus musculus with 6 samples.

Results

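Receptors through which microglia sense chemokines and other chemoattractants were examined in primary microglial cultures of mice lacking Dap12. The set held 9 named genes: Cx3cr1, Ccr1, Ccr2, Ccr6, Cxcr4, Ccrl2, Cmklr1, Fpr1 and Fpr2. Every probe set whose platform annotation gives exactly 1 gene symbol, and that symbol among the 9, was taken. This gave 14 of 45101 probe sets, for 8 of the 9 genes. Fpr1 had no probe set of this kind and was not analysed here. Biotin-labelled RNA of 6 samples, called cultures here, was hybridised to oligonucleotide arrays of 1 colour, with an array for each sample. The titles of 4 samples carry 2 numbers and those of the other 2 carry 1, and whether 2 numbers mark a pool of cultures or animals is not given in the labels. An SD over 3 arrays may therefore be a spread between pools. The labels describe 3 cultures as wild-type and 3 as Dap12-ko, called Dap12-deficient here, and all 6 as mouse primary microglia. Strain, age, sex, allele and the number of animals behind a culture are not given in the labels. P-values reflect only the spread among these 6 samples.

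Chemokine receptors are receptors with a bundle of membrane helices that couple to inhibitory G proteins and steer cells along gradients of their ligands. Microglia, the resident macrophages of the brain, are marked by Cx3cr1, the receptor of the neuronal chemokine Cx3cl1, whereas Ccr2 marks monocytes that enter from blood. Atypical receptors such as Ccrl2 bind a ligand without classical G protein signalling, and formyl peptide receptors sense bacterial and mitochondrial peptides. Dap12, encoded by Tyrobp, is an adaptor through which receptors such as Trem2 activate the kinase Syk. The comparison asks how transcripts of these receptors differ between microglia with and without this adaptor.

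Among the members, Cxcr4 and Ccrl2 were the 2 receptors whose signals did not overlap between the groups. Both had all Dap12-deficient arrays above, which held for 7.54% of all 12875 tested genes. The ratio of mean signals, Dap12-deficient to wild-type, was 2.00 for Cxcr4 and 1.81 for Ccrl2, and neither passed the threshold. Cx3cr1 gave opposite directions with its 2 probe sets. Ccr1, Ccr2, Ccr6, Cmklr1 and Fpr2 overlapped between the groups with every probe set. Of 11 member probe sets bright enough to be tested, 0 passed a Benjamini-Hochberg adjusted p under 0.05 in limma, and 2 had an unadjusted p under 0.05. Over all 27022 tested probe sets 2 passed, which is 0.0074%, and 10.7% had an unadjusted p under 0.05. The overall count rose to 15 (2 higher, 13 lower) without Dap12-deficient replicate 1 and to 172 (156 higher, 16 lower) without Dap12-deficient replicate 2. No member probe set was among the calls under any of these array sets.

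The label of the cultures was checked with the targeted gene and with cell type markers. Tyrobp fell by 5.64 on the log2 scale (limma adjusted p = 8.14e-07), with mean signals of 6083 ± 1032 with Dap12 and 106 ± 16.8 without it (SD, n = 3 each). Of 12 measured microglia markers, such as Csf1r and the complement genes C1qa and C1qb, all 12 had a negative difference and 0 passed, with a median of -0.32. Their summed signal was 29544 to 41543 on wild-type and 24190 to 36970 on Dap12-deficient arrays. Oligodendrocyte markers summed to 5238 to 8326 on wild-type arrays and to 5978, 2061 and 1391 on Dap12-deficient arrays 1, 2 and 3. All 7 measured oligodendrocyte markers had a negative difference and 0 passed, with a median of -1.51. The sums of astrocyte markers were 374 to 569 with Dap12 and 375 to 1346 without it. All 7 of them had a positive difference and 0 passed, with a median of 0.48. Granulocyte markers summed to at most 58.7 on any array, and 5 of their 7 measured genes had a mean signal under the filter. Sex-linked genes separated the groups. The Y-linked genes Eif2s3y, Kdm5d and Uty summed to 708 to 781 on wild-type and 88.4 to 234 on Dap12-deficient arrays. Xist, the RNA that silences an X chromosome in female cells, was at 251, 277 and 1164 against 2514, 2483 and 1228. For any difference between the groups, genotype and the sex make-up of the cultures thus cannot be told apart. A fit with a term for the Y-linked genes is given beside Cxcr4 and Ccrl2, but that term itself separates the groups. In bulk RNA, fewer cells of a type and less RNA per cell cannot be told apart.

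**Figure D1:**
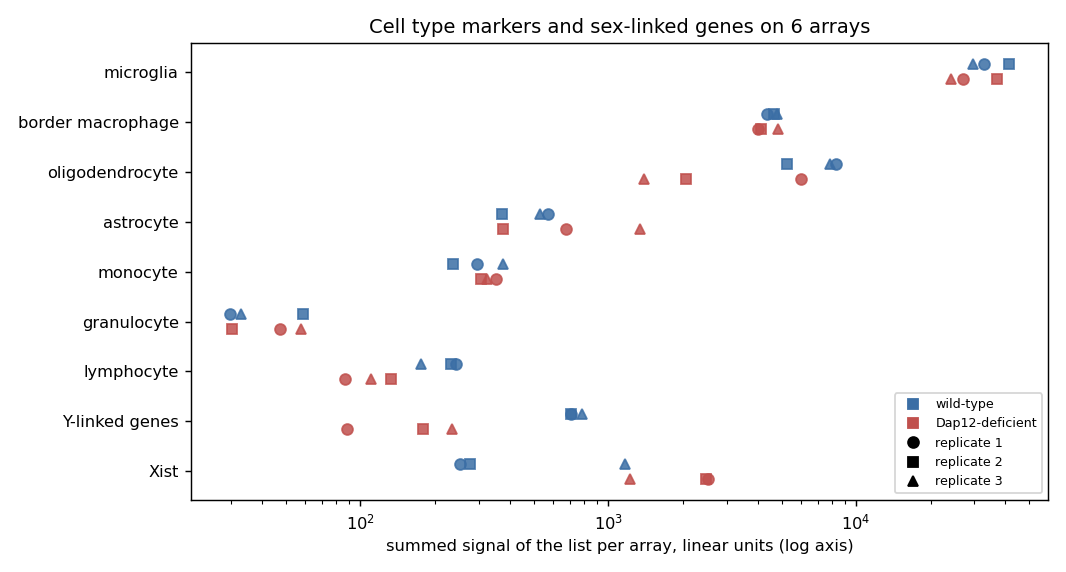
Summed linear signal of each marker list, of 3 Y-linked genes and of Xist, per array on a log axis, with wild-type arrays in blue and Dap12-deficient arrays in red, and a symbol for each replicate. The sums of microglia, oligodendrocyte and astrocyte markers overlap between the groups. Those of lymphocyte markers do not, at 176 to 244 in wild-type and 86.5 to 133 in Dap12-deficient cultures. All 7 oligodendrocyte markers had a negative and all 7 astrocyte markers a positive log2 difference. The Y-linked sum is 708 to 781 in wild-type and 88.4 to 234 in Dap12-deficient cultures.

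Cxcr4 is the receptor of Cxcl12, which retains and guides leukocytes, progenitors and migrating neurons. Its only probe set gave linear signals of 327, 387 and 416 in the wild-type cultures, in the order of replicates 1 to 3, against 1035, 492 and 728 in the Dap12-deficient cultures. The same order is kept for all genes. Every Dap12-deficient array was above every wild-type array, and Dap12-deficient array 1 was the highest. The means were 377 ± 45.2 (SD, n = 3) and 752 ± 272 (SD, n = 3). On the scale of log2(signal + 16), the difference was 0.91 (SE 0.26, 95% interval 0.33 to 1.49, limma unadjusted p = 0.00536, adjusted p = 0.335). A larger difference was seen for 0.73% of 12875 tested genes, the brightest tested probe set standing for a gene. The exact two-sided permutation p was 0.1, the smallest that 3 against 3 arrays allow and the value of every gene without overlap. Leaving out each array in turn gave differences of 0.65 (without Dap12-deficient replicate 1) to 1.18 (without Dap12-deficient replicate 2), with adjusted p from 0.0625 to 0.693. With a term for the Y-linked genes, added after the data were seen, the difference was 0.16 (SE 0.73, adjusted p = 0.967). The standard error was thus 0.73 with that term and 0.26 without it.

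Ccrl2 is an atypical receptor that binds chemerin and presents it to cells carrying Cmklr1, and it is induced in activated macrophages. Signals of its only probe set were 583, 368 and 593 with Dap12 against 763, 832 and 1204 without it. Again no array of one group reached into the other, and Dap12-deficient array 3 was the highest, not array 1 as for Cxcr4. The means were 515 ± 127 (SD, n = 3) and 933 ± 237 (SD, n = 3). The log2 difference was 0.84 (SE 0.25, 95% interval 0.29 to 1.39, limma unadjusted p = 0.00651, adjusted p = 0.335). Among the genes, 1.01% had a larger difference. The exact two-sided permutation p was 0.1, the smallest possible, as for every gene without overlap. Without single arrays the log2 difference ranged from 0.62 (without wild-type replicate 2) to 0.97 (without Dap12-deficient replicate 1). With the Y-linked term it was 1.60 (SE 0.69, limma adjusted p = 0.582). The estimate thus moved up for Ccrl2 and down for Cxcr4, with larger standard errors for both. On Dap12-deficient array 3, where Ccrl2 was highest, the sum of oligodendrocyte markers was the lowest of the 6 (1391) and that of astrocyte markers the highest (1346), and their part in the result was not tested.

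The 250 bases before the start of Ccrl2 and of Cxcr4 are shown because both genes had higher signals on all 3 Dap12-deficient arrays. They come from RefSeq on GRCm38.p6, in which 9 of the 9 members have a window, and are written 5′ to 3′ on the gene's strand. Ccrl2 has 3 annotated starts, and the window of the most upstream is given, chr9:111057519-111057768 on the minus strand. The window of Cxcr4 is chr1:128592300-128592549 on the minus strand. Capitals mark a match to the NF-kB motif, the binding sequence of a transcription factor family of inflammation.
Ccrl2: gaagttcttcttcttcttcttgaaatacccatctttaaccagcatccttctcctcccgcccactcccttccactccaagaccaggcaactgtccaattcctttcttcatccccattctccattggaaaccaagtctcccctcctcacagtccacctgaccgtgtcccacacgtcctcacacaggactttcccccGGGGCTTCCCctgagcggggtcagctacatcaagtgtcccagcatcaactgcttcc
Cxcr4: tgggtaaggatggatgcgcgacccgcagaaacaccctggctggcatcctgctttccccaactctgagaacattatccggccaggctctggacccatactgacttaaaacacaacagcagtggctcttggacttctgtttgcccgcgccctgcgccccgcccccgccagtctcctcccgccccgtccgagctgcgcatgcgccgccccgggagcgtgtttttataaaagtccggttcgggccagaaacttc

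The motif was searched on both strands of 250 bases before each start. The Ccrl2 window held 1 match, GGGGCTTCCC, which begins 56 bases before the start, and the windows of the other two Ccrl2 starts held 0. The Cxcr4 window held 0. Among the 12 windows of the members, 2 held a match, the other being that of a Ccr6 start with overlapping matches on both strands. Over all 32851 windows in the table, 3.90% held a match. Such a match is a description of letters and not a site of binding.

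**Figure D2:**
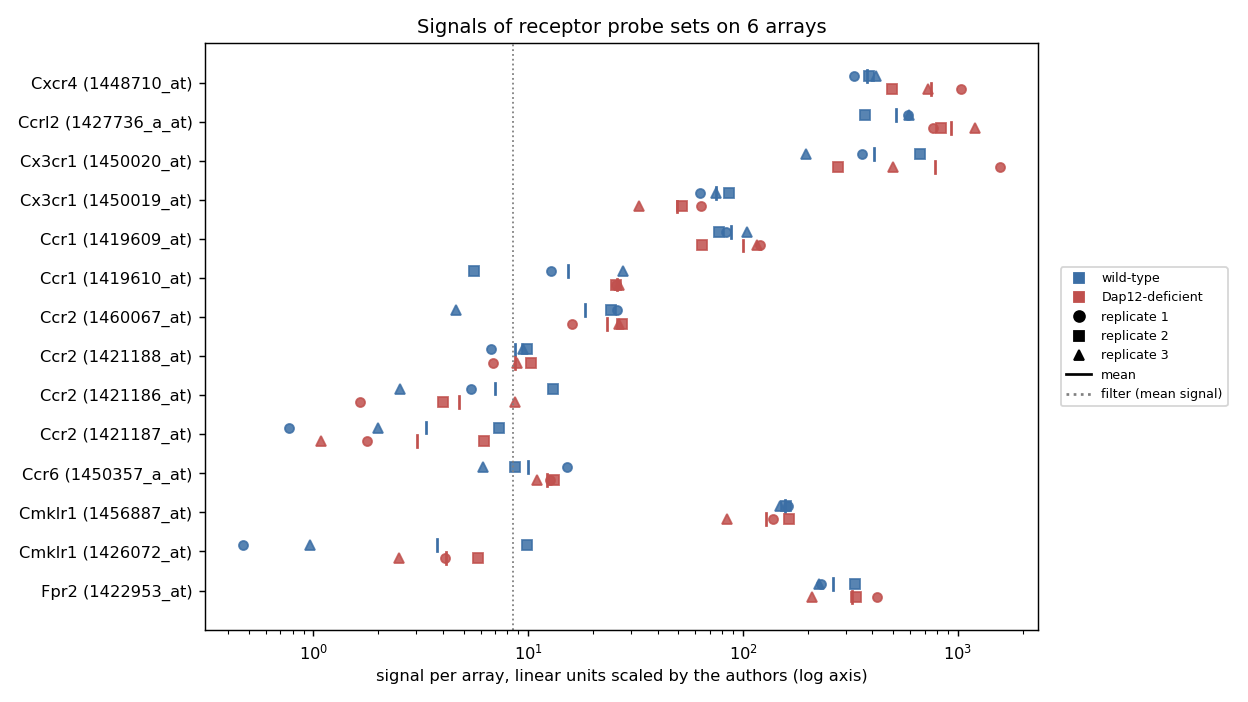
Linear signal of each of 14 receptor probe sets on each array on a log axis, with wild-type arrays in blue, Dap12-deficient arrays in red, a symbol for each replicate and a bar at each group's mean. For Cxcr4 and Ccrl2 all red points lie to the right of all blue points, as for 7.54% of all tested genes, and the other 12 probe sets overlap. The dotted line is the filter on the mean signal, 8.51, under which 3 probe sets were not tested.

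Cx3cr1, the fractalkine receptor through which neurons and microglia communicate, was measured by 2 probe sets. The brighter gave 357, 664 and 197 with Dap12 against 1571, 276 and 499 without it. Dap12-deficient array 1 stood far above the other 5 arrays, and array 2 of the same group was lower than 2 of the wild-type arrays. The means of 406 ± 237 (SD, n = 3) and 782 ± 692 (SD, n = 3) overlapped, with a log2 difference of 0.72 (SE 0.56, 95% interval -0.53 to 1.96, limma adjusted p = 0.673). Without Dap12-deficient replicate 1 the difference was 0.04, and without Dap12-deficient replicate 2 it was 1.26 (adjusted p = 0.313). Without wild-type replicate 3 it was 0.30, and without wild-type replicate 2 it was 1.14.

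The dimmer probe set of Cx3cr1 gave 62.9, 85.6 and 74.8 against 63.4, 52.2 and 32.7. Here Dap12-deficient array 1 lay just above wild-type array 1, and the other two Dap12-deficient arrays lay below all wild-type arrays. The log2 difference was -0.49 (SE 0.23, 95% interval -0.99 to 0.01, limma adjusted p = 0.483), and it stayed negative in all 16 alternatives that could be fitted, from -1.35 to -0.29. The log2 ratio of the brighter to the dimmer probe set was 2.07 ± 0.77 (SD, n = 3) with Dap12 and 3.28 ± 1.12 (SD, n = 3) without it. On single arrays it ran from 1.23 to 2.74 and from 2.10 to 4.32, so the groups overlapped (exact two-sided permutation p = 0.3). The probe sets thus gave no common direction for Cx3cr1, and the mean of both gave 0.11 (SE 0.35, limma adjusted p = 0.936).

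Ccr1, a receptor of Ccl3, Ccl5 and related inflammatory chemokines, also had 2 probe sets. The brighter gave 83.6, 77.3 and 104 in wild-type against 120, 64.2 and 116 in Dap12-deficient cultures. Dap12-deficient arrays 1 and 3 were the highest of all 6 arrays and array 2 the lowest. The log2 difference was 0.12 (SE 0.24, 95% interval -0.41 to 0.66, limma adjusted p = 0.884), and it turned to -0.10 when arrays were scaled to a common median. The dimmer probe set gave 12.7, 5.59 and 27.6 against 25.5, 25.6 and 26.3. The Dap12-deficient arrays were close together and wild-type array 3 was above all of them, with a log2 difference of 0.48 (SE 0.25, 95% interval -0.07 to 1.03, adjusted p = 0.527). For this dimmer probe set the difference was 0.24 without wild-type replicate 2, 0.75 without wild-type replicate 3 (adjusted p = 0.664) and 0.97 with a pseudocount of 1. For the brighter one it was 0.37 without Dap12-deficient replicate 2 and -0.010 without Dap12-deficient replicate 1.

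Ccr2, the receptor of Ccl2 that marks inflammatory monocytes, was dim with all 4 of its probe sets. The highest signal of any of them on any array was 27.4. The brightest probe set gave 25.9, 24.3 and 4.61 in wild-type against 15.9, 27.4 and 26.5 in Dap12-deficient cultures, with wild-type array 3 apart from the others. For this probe set the log2 difference was 0.25 (SE 0.28, 95% interval -0.37 to 0.87, limma adjusted p = 0.777). Without wild-type replicate 3 it was -0.08, and without wild-type replicate 1 it was 0.43. Another probe set just passed the filter and had equal means in the groups, 8.67 ± 1.72 (SD, n = 3) and 8.66 ± 1.71 (SD, n = 3). The remaining 2 lay under the filter with signals from 0.77 to 13.0 and were not tested. Of 4 measured monocyte markers, Plac8, Chil3 and F10 had mean signals under the filter, and Vcan, which other cells also make, was at 292 with Dap12 and 309 without it.

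Ccr6, the receptor of Ccl20 on lymphocytes and dendritic cells, had a single dim probe set. It gave 15.1, 8.63 and 6.15 in wild-type against 12.6, 13.2 and 10.99 in Dap12-deficient cultures. Wild-type array 1 was the highest and the other two wild-type arrays were the lowest. For Ccr6 the log2 difference was 0.14 (SE 0.19, 95% interval -0.29 to 0.56, limma adjusted p = 0.827). It was 0.03 without wild-type replicate 3, 0.28 without wild-type replicate 1 and 0.36 with a pseudocount of 1. Of 7 measured lymphocyte markers 5 had a mean signal under the filter, Cd79b was at 10.7 and 10.4, and Ighm was at 192 with Dap12 and 67.0 without it. The summed lymphocyte markers did not overlap between the groups, at 176 to 244 on wild-type and 86.5 to 133 on Dap12-deficient arrays.

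Cmklr1 is the signalling receptor of chemerin, the ligand that Ccrl2 also binds. Its brighter probe set gave 162, 158 and 148 with Dap12 against 138, 164 and 83.9 without it. The wild-type arrays lay close together, and Dap12-deficient array 2 was the highest and array 3 the lowest of the 6. The log2 difference was -0.30 (SE 0.24, 95% interval -0.82 to 0.23, limma adjusted p = 0.679). It was -0.05 without Dap12-deficient replicate 3, -0.47 without Dap12-deficient replicate 2 and -0.52 with a common median. Its other probe set, with signals from 0.47 to 9.84, was under the filter. Array 3 of the Dap12-deficient cultures thus had the highest Ccrl2 and the lowest Cmklr1 signal of all 6 arrays.

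Fpr2, a formyl peptide receptor that also responds to annexin and serum amyloid ligands, had 1 probe set. It gave 230, 333 and 225 in wild-type against 420, 335 and 209 in Dap12-deficient cultures. Dap12-deficient array 1 was the highest and array 3 the lowest. Its log2 difference was 0.24 (SE 0.27, 95% interval -0.35 to 0.84, limma adjusted p = 0.772). With a common median it was 0.0034, and without Dap12-deficient replicate 1 it was 0.03. The highest values came from leaving out Dap12-deficient replicate 3, at 0.51 (adjusted p = 0.557), and wild-type replicate 2, at 0.42.

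**Figure D3:**
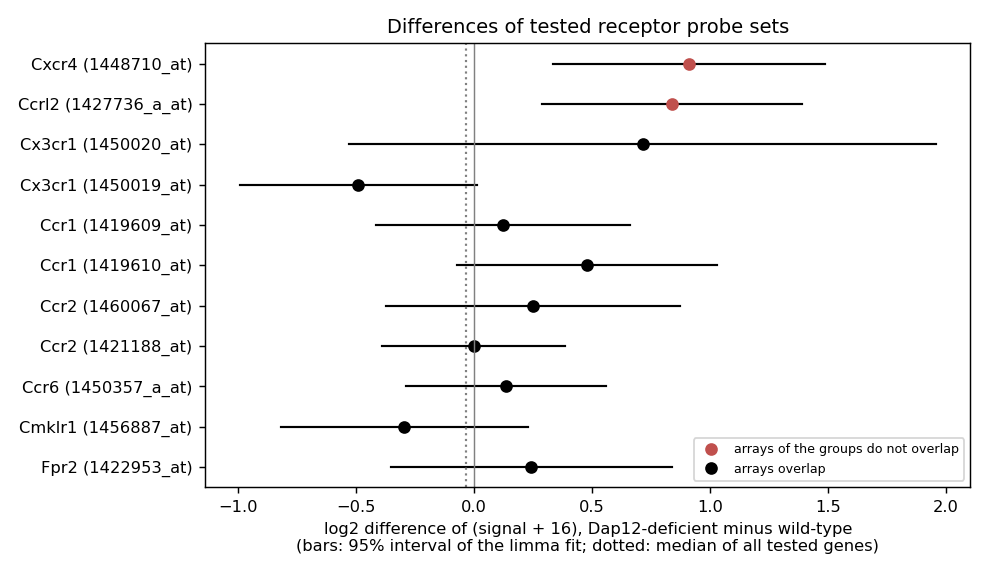
Log2 difference of each of 11 tested receptor probe sets, Dap12-deficient minus wild-type, with the 95% interval of the limma fit; red points are probe sets whose arrays do not overlap between the groups. The intervals of Cxcr4 (0.33 to 1.49) and Ccrl2 (0.29 to 1.39) lie above 0 before adjustment, the others include 0, and the dotted line is the median of all tested genes, -0.03.

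As a set, 7 of the 8 tested member genes had a positive and 1 a negative log2 difference, with a median of 0.25 against -0.03 over all 12875 genes, of which 5820 had a positive difference. Cx3cr1 counts among the 7 by its brighter probe set, and its dimmer one was negative. Ccr2 and Ccr6, also among the 7, were dim and fell from 0.25 and 0.14 to 0.16 and 0.03 after quantile normalization. The split of 7 to 1 was 6 to 2 with a common median, without Dap12-deficient replicate 1 and without wild-type replicate 3. It was 3 to 5 with the Y-linked term, under which the standard errors of the members were larger. The groups' arrays did not overlap for 2 of the 8, both with Dap12-deficient arrays above, which held for 7.54% of all genes. An unadjusted p under 0.05 with a positive difference was found for 2 of 8 member genes and for 4.76% of all genes. With a common median, the limma unadjusted p was 0.0246 for Cxcr4 and 0.0657 for Ccrl2. For the dimmer Cx3cr1 probe set it was then 0.00905, with a difference of -0.69 (adjusted p = 0.264). The common median moved the median of all genes from -0.03 to -0.23 and the share of positive differences among those with an unadjusted p under 0.05 from 49.4% to 9.76%. Relative to the median of all genes, Cxcr4 was 0.94 higher as deposited, 0.90 higher with a common median and 0.998 higher after quantile normalization. The same values for Ccrl2 were 0.87, 0.82 and 0.94. Taking off the median of all genes removes a shift that a scaling gives to most genes, so these values change little by construction. Without that step, the differences with a common median were 0.66 for Cxcr4 and 0.59 for Ccrl2.

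**Figure D4:**
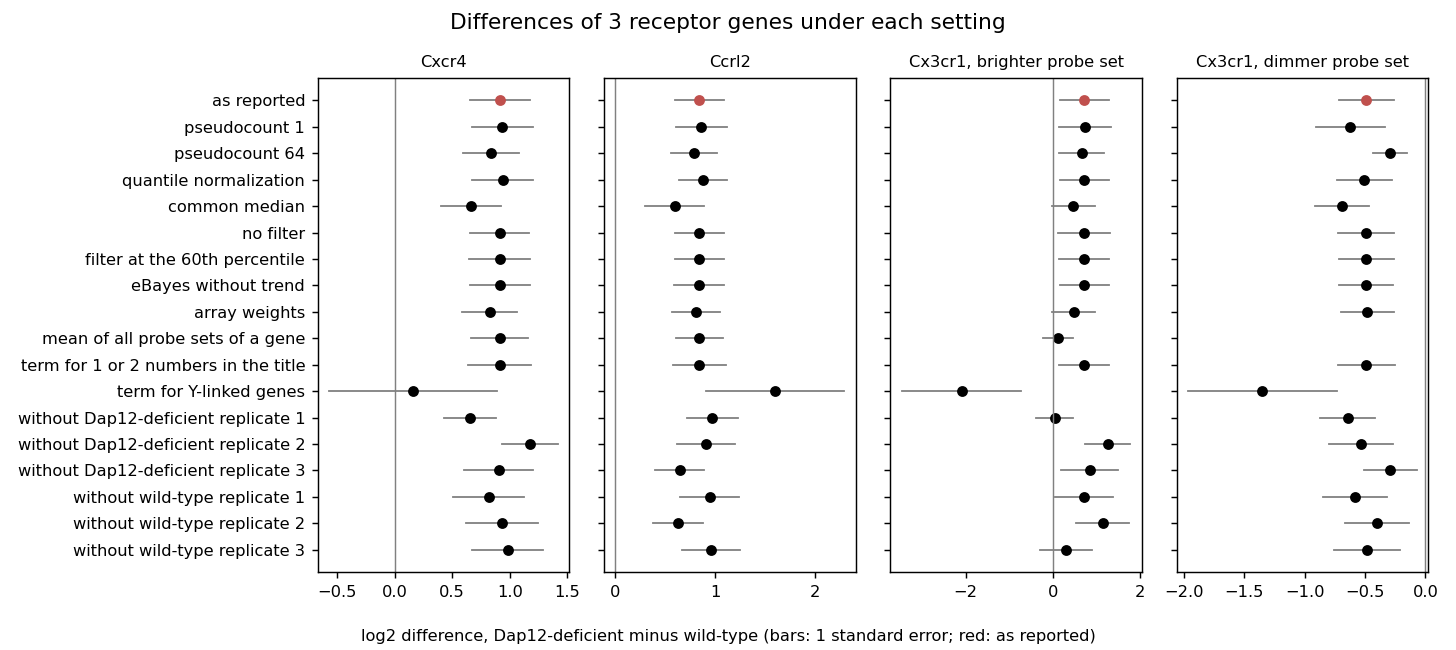
Log2 difference of Cxcr4, Ccrl2 and both Cx3cr1 probe sets under each setting, with bars of 1 standard error; the value as reported is red and each panel has its own axis. Cxcr4 runs from 0.16 to 1.18 and Ccrl2 from 0.59 to 1.60, while the brighter Cx3cr1 probe set falls to -2.10 with the Y-linked term and the dimmer one is below 0 throughout.

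The profiles over 6 arrays most like those of both genes were picked by the root mean square difference of log2 values, each centred on its own mean. For Ccrl2, these were Kansl1l (0.09), Zfp503 (0.10) and Dcbld2 (0.13), out of 12874 genes. For Cxcr4 they were Ifnar1, a chain of the type I interferon receptor (0.10), the transcription factor Foxj2 (0.10) and the DNA methyltransferase Dnmt3a (0.14). The standard deviation of the profile itself was 0.56 for Ccrl2 and 0.61 for Cxcr4. Both the difference between the groups and the order of arrays within each group are part of this likeness by selection. All 6 genes had Dap12-deficient arrays above all wild-type arrays. Within the Dap12-deficient group, Ifnar1 was at 411, 218 and 332 on arrays 1, 2 and 3, with the highest signal on array 1 as for Cxcr4. Zfp503 was at 456, 474 and 672, highest on array 3 as for Ccrl2.

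Ligands of the receptors were taken as a list, of which 14 of 17 genes were tested. In limma 0 passed, against 0.0155% of all genes, and 2 had an unadjusted p under 0.05 with a negative difference, which held for 4.87% of all genes. The median was -0.23, and -0.47 with a common median. It turned positive without Dap12-deficient replicate 1 (0.05) and with the Y-linked term (0.48). Ccl6, a myeloid CC chemokine, gave 778, 631 and 898 in wild-type against 530, 312 and 377 in Dap12-deficient cultures, a log2 difference of -0.91 (SE 0.23, adjusted p = 0.311). Ccl4, an inflammatory CC chemokine, gave 733, 665 and 660 against 341, 601 and 221, a difference of -0.91 (SE 0.30, adjusted p = 0.365). For both, all Dap12-deficient arrays lay below all wild-type arrays, which held for 8.85% of all genes. Anxa1, whose product acts on formyl peptide receptors, had a difference of -0.47 (SE 0.24) and Ccl9, a ligand of Ccr1, -0.42 (SE 0.21), and their arrays overlapped.

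Of 30 other chemokine and chemoattractant receptors listed, 23 had a probe set and 12 were bright enough to be tested. Again 0 passed in limma, and 1 had an unadjusted p under 0.05 with a negative difference, which held for 4.87% of all genes. The median was 0.11, -0.07 with a common median and -0.37 with the Y-linked term. Gpr183, a receptor of oxysterols that positions immune cells, gave 121, 148 and 105 in wild-type against 73.8, 64.5 and 97.2 in Dap12-deficient cultures, a log2 difference of -0.58 (SE 0.21, adjusted p = 0.387). The sphingosine 1-phosphate receptor S1pr2 had -0.46 (SE 0.23). For Gpr183 and S1pr2 all Dap12-deficient arrays lay below all wild-type arrays, which held for 8.85% of all genes. The related receptor S1pr1 had 0.57 (SE 0.31), and the microglial ADP receptor P2ry12 had -0.29 (SE 0.22), both with overlapping arrays.

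Genes that couple receptors to G proteins or switch them off numbered 21 tested of 23 listed. None passed in limma (0 of 21), and 2 had an unadjusted p under 0.05, both lower, which held for 4.87% of all genes. The median was -0.21, or -0.40 with a common median. It was -0.06 without Dap12-deficient replicate 3, -0.08 without wild-type replicate 2 and -0.06 with the mean of a gene's probe sets. Rgs19, which speeds the shutdown of inhibitory G proteins, gave 232, 271 and 313 in wild-type against 161, 175 and 173 in Dap12-deficient cultures. Its log2 difference was -0.62 (SE 0.19, adjusted p = 0.337), with all Dap12-deficient arrays below, as for 8.85% of all genes. Arrb2, the arrestin that uncouples and internalises chemokine receptors, had -0.49 (SE 0.21, adjusted p = 0.453). Rgs2, of the same family as Rgs19, gave 4218, 3718 and 3733 against 5545, 4724 and 4610. Its difference was 0.35 (SE 0.16, adjusted p = 0.489), with all Dap12-deficient arrays above, as for 7.54% of all genes. The G protein subunit gene Gng2 had 0.84 (SE 0.40), with overlapping arrays and a signal of 635 on Dap12-deficient array 1, where Cxcr4 and the brighter Cx3cr1 probe set were also highest. That array had the lowest weight of all arrays, 0.52, in the fit with array weights.

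Effectors of chemotaxis gave 19 tested genes of 22 listed. In limma 0 passed and 0 had an unadjusted p under 0.05, against 4.76% of all genes higher and 4.87% lower. The median was 0.0033, or -0.24 with a common median. Without single arrays it lay between -0.20 (without Dap12-deficient replicate 2) and 0.06 (without wild-type replicate 2). The leukocyte integrin chain Itgb2 gave 2063, 2317 and 2187 in wild-type against 1613, 2003 and 1342 in Dap12-deficient cultures. Its log2 difference was -0.42 (SE 0.19, adjusted p = 0.475), with all Dap12-deficient arrays below, as for 8.85% of all genes. The actin regulator Coro1a had -0.44 (SE 0.25), the phospholipase gene Plcb3 -0.41 (SE 0.24) and the small GTPase gene Rac1 -0.34 (SE 0.21). Arrays overlapped for the last 3.

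**Figure D5:**
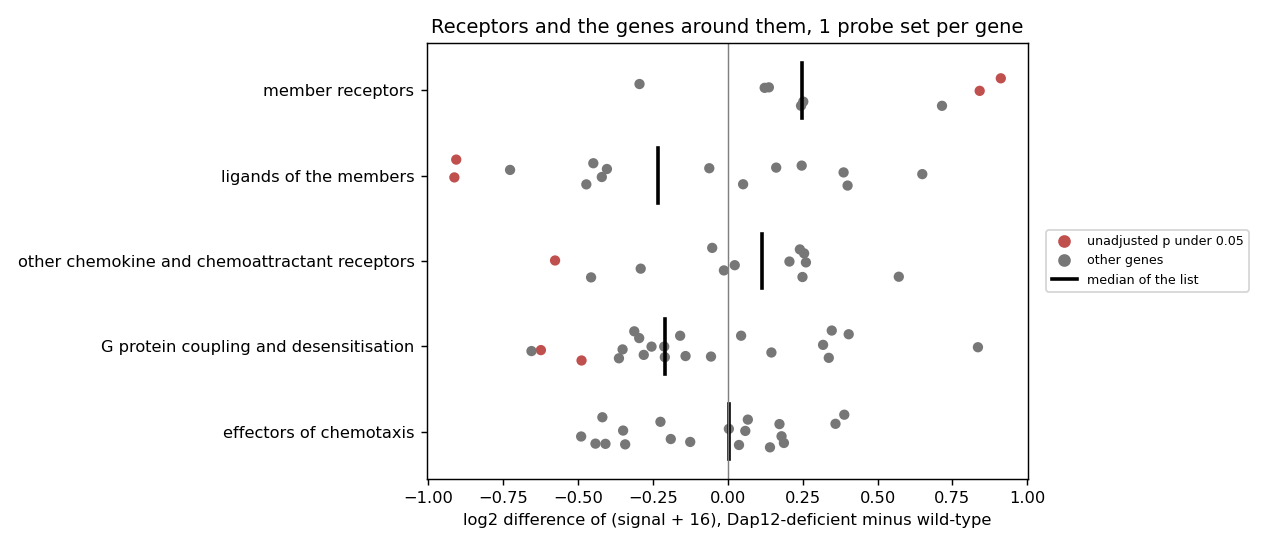
Log2 differences, Dap12-deficient minus wild-type, of 8 member receptors and of the tested genes of 4 lists around them, 1 probe set per gene; red points had an unadjusted p under 0.05 and black bars are medians. The member receptors have a median of 0.25 and the ligands one of -0.23, which is 0.05 without Dap12-deficient replicate 1 and 0.48 with the Y-linked term, and no point in the plot passed the adjusted threshold.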

How the data were processed

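Per the labels' protocols, Trizol and RNeasy were used for extraction, and RNA was amplified in a kit of a pair of cycles with biotin as label. The deposited table holds a linear intensity for each probe set, which the submitters' processing notes tie to GCOS without a version. Its summary algorithm is not stated there. Means trimmed by 2% were 100.0 on all arrays, so the authors had scaled them to a common target, and the signals were used as deposited. Median signals still differed, at 12.3, 14.0 and 11.9 on wild-type arrays and 16.4, 14.5 and 14.6 on Dap12-deficient arrays. Every Dap12-deficient median was thus above every wild-type one, and dim probe sets lie near these levels. No pair of arrays shared an identical value for any probe set (0 in each pair). Each group had 3 arrays, which limits the precision of every difference.

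After adding a pseudocount of 16, log2 was taken, which understates differences of dim genes. Of 45101 probe sets, 64 controls were left out, and the 27022 with a mean signal at or above the 40th percentile (8.51) were tested. Groups were compared in R 4.3.3 with the two-sided test of limma 3.58.1 (eBayes with trend, no covariate), and p-values were adjusted by Benjamini-Hochberg with a threshold of 0.05. The brightest tested probe set stood for a gene. The fit was tested on simulated data. At the threshold it recovered 36.8% of true log2 differences of 1 and 83.2% of those of 2. The simulated sets held many more true differences than the 2 probe sets called in the real data. The adjusted threshold was therefore easier to pass there, and these shares may overstate recovery in the real data. Eif2s3y, at a log2 difference of -2.22, had a limma adjusted p of 0.0998 and did not pass. A difference of the size seen for Cxcr4 or Ccrl2 can therefore often fail to pass.

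Named genes were all members, Tyrobp, the 4 genes of each list with the smallest p and the 3 most similar profiles of Ccrl2 (highest mean signal) and Cxcr4 (smallest p). The markers, sex-linked genes and their values were named beside them. Members and lists were chosen with earlier results of these data known. Alternatives were other pseudocounts, scalings, filters and prior settings, array weights, the mean of a gene's probe sets, a term for 1 or 2 numbers in the title, leaving out each array, and a Y-linked term (Eif2s3y, Kdm5d and Uty, averaged on the log2 scale) added after the data were seen.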

Additional observations from a re-analysis of the deposited data

How the results depend on the processing

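No member probe set passed the threshold under any of 16 alternatives (limma adjusted p of the best member from 0.0625 to 0.693), and 1 to 3 had an unadjusted p under 0.05. The 4 lists had 0 passing genes under all 17. Their counts at an unadjusted p under 0.05 were 2 for ligands, 1 for other receptors, 2 for G protein coupling and 0 for effectors, and 6, 3, 6 and 6 with a common median, where the count over all 12875 genes also rose, from 1240 to 2253 (220 higher, 2033 lower). Cxcr4, Ccrl2 and Cmklr1 kept their direction under all 17. The median of the member genes, 0.25, moved to 0.48 with a pseudocount of 1, to 0.48 with a filter at the 60th percentile, which left 6 genes, and to -0.13 with the Y-linked term, and it lay between 0.08 and 0.41 without single arrays. The count of all probe sets, 2, became 5 with a common median, 4 with array weights and 11 with the Y-linked term, and ran from 2 to 172 without single arrays. Directions turned as follows, and the cause was not tested. The median of the ligands, -0.23, was 0.05 without Dap12-deficient replicate 1 and 0.48 with the Y-linked term, that of other receptors, 0.11, was -0.07 with a common median, -0.013 with a filter at the 60th percentile and -0.37 with the Y-linked term, and that of effectors, 0.0033, ran from -0.24 (common median) to 0.08 (array weights). With the Y-linked term Cx3cr1 was -2.10 (SE 1.37), Ccr1 -0.039 (SE 0.72), Ccr6 -0.22 (SE 0.57) and Fpr2 -1.01 (SE 0.67). Without it their SEs were 0.56, 0.24, 0.19 and 0.27. The term largely follows the groups, so these turns in direction are imprecise. Ccr1 was -0.10 with a common median and -0.010 to 0.37 without single arrays, and Ccr2 -0.080 to 0.43. The second Ccr2 probe set, at -9.0e-05, was 0.000497 with a pseudocount of 1, 0.046 with array weights, 0.32 with the Y-linked term and -0.059 to 0.054 without single arrays. No paired analysis was possible because the labels give the groups no shared replicate numbers. Of the 14 member probe sets, 3 lay under the filter and were not tested.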
